A study of Homo sapiens with 9 samples.

Results

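The response that 2 siRNAs against the long noncoding RNA LINC00857 had in common was measured in HCT116, a human colorectal carcinoma cell line. All 6 knockdown libraries, 3 of cells transfected with LINC00857-siRNA 1 and 3 of cells transfected with LINC00857-siRNA 2 (siRNA1 and siRNA2 here), were taken as a single group and set against the 3 libraries of cells that received a negative control siRNA (NC). These 9 libraries are the whole series. A gene belonged to the common response when it passed the pooled test (edgeR quasi-likelihood, Benjamini-Hochberg adjusted p under 0.05) and when all 6 knockdown libraries lay on the same side of all 3 NC libraries, and 1261 of the 21130 genes tested did so. Cells of every group went through the same lipid transfection with Lipofectamine RNAiMax, so NC controls for transfection and for the presence of an siRNA, but not for the sequence of either LINC00857 siRNA, and no untransfected cells were sequenced. Whether the libraries of a group were grown as separate cultures is not stated in the labels, and p-values therefore reflect only how much these libraries varied, which may be technical variation.

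A long noncoding RNA is a transcript with no protein product that can act in the nucleus or the cytoplasm, for example by binding proteins or other RNAs. An siRNA is a short RNA duplex whose guide strand is loaded into an Argonaute protein and directs the cleavage of a transcript that pairs with it along its full length. Like a microRNA, a guide can also lower transcripts that pair only with its seed, the bases at positions 2 to 8, most often through sites in a 3′ UTR, and for this reason studies compare siRNAs of different sequence against the same target.

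The stretches of LINC00857 that match the siRNAs, whose sequences are in the study's methods, are shown because they fix the seed of each guide. LINC00857 lies at chr10:80207710-80219657 on the plus strand (GRCh38, GENCODE v29), and both targets lie in its last exon, exon 2, and in the annotated transcript of 2161 bases the siRNA1 target spans bases 1533 to 1551 and the siRNA2 target bases 1030 to 1048. Capitals mark the 7 bases that pair with the seed of the guide.
LINC00857 siRNA1 target, chr10:80219029-80219047 (+): ggctatgtgctGTGAACAa
LINC00857 siRNA2 target, chr10:80218526-80218544 (+): ggtattagtggGTGAATAt
The seed sites of the siRNAs, GTGAACA and GTGAATA, differ from each other in 1 base, so the 2 guides have closely related seeds.

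LINC00857 itself fell to less than the lowest NC level in all 6 knockdown libraries. It had 201, 229 and 207 TMM-normalized counts (counts scaled to a common library size) with siRNA1 and 179, 178 and 243 with siRNA2, against 518, 423 and 505 in NC. The pooled log2 fold change was -1.22 ± 0.14 (SE, 6 libraries against 3), with an adjusted p of 0.00112 by edgeR, and an exact two-sided permutation test of log2 CPM gave p = 0.0238, the smallest that 6 against 3 libraries allow. The log2 fold change was -1.18 for siRNA1 and -1.27 for siRNA2, and the siRNA1 minus siRNA2 difference was 0.085 ± 0.17 (SE, adjusted p = 0.783).

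Of the 5 genes that the study singles out as lowered in these cells, 1 passed the pooled test at an adjusted p under 0.05. To choose them, the study combined its data for the 2 siRNAs and took the largest falls. Its limma tests covered genes of selected co-expression modules, at p under 0.05, with no adjustment named, and a log2 change beyond 1. The pooled test here covers all genes kept and takes the siRNAs as a single group, so the measures differ. The unadjusted p of the pooled edgeR test was 5.81e-05 for RPL17-C18orf32, 0.00483 for PIWIL4, 0.0030 for TREX1, 0.00327 for TEN1 and 0.0289 for TBC1D28. In the edgeR model with 3 groups, each siRNA was also set against NC. For siRNA1 and siRNA2, adjusted p was 0.000939 and 0.00113 for RPL17-C18orf32, 0.0393 and 0.0383 for TREX1 and 0.0498 and 0.015 for TEN1. It was 0.101 and 0.0143 for PIWIL4 and 0.326 and 0.0512 for TBC1D28. The study also reports lower PIWIL4 by qPCR after knockdown. The study chose these 5 genes on these libraries, so their direction is no independent evidence. RPL17-C18orf32, a readthrough transcript that shares exons with the ribosomal protein gene RPL17, fell by 2.23 on the log2 scale (SE 0.35, adjusted p = 0.00443), but no source here states how reads were divided between overlapping genes, so its level is uncertain. Its libraries held 545, 689.6 and 241 with siRNA1 and 865, 285 and 529 with siRNA2, against 3378, 2213 and 1794 in NC. PIWIL4, a member of the Piwi family of Argonaute proteins that bind small RNAs in the germ line, had 24.5, 19.5 and 36 with siRNA1 and 9.86, 8.73 and 30.5 with siRNA2, against 41.7, 83.4 and 77.1 in NC. All 6 knockdown values of PIWIL4 lay below the lowest NC value, and the pooled change was -1.64 ± 0.46, adjusted p = 0.0658, which missed the threshold. TREX1, a DNA exonuclease of the cytosol whose gene overlaps that of ATRIP, was at 6.9 to 33 in the knockdown libraries and 36.6 to 96.9 in NC (-1.99 ± 0.52, adjusted p = 0.0501). TEN1, a subunit of the telomere-binding CST complex that is also part of a readthrough gene, was at 21.4 to 119 in the knockdown libraries and 134 to 409.9 in NC (-1.87 ± 0.50, adjusted p = 0.0527), and TBC1D28 was at 0 to 7.8 in the knockdown libraries and 15.9 to 26.4 in NC (-2.39 ± 0.95, adjusted p = 0.181). None of these 4 genes had a knockdown value as high as its lowest NC value. PIWIL4, TREX1 and TBC1D28 had few counts, and the NC values of PIWIL4, TREX1 and TEN1 differed by a wide margin between libraries. PIWIL4, TREX1 and TEN1 were called by limma-voom (adjusted p = 0.0467, 0.0434 and 0.0427) and for the mean of the siRNAs in a model with 3 groups (adjusted p = 0.0143, 0.0136 and 0.0092), and not with the siRNA as a random block (adjusted p = 0.402, 0.412 and 0.375). DESeq2 called TEN1 (adjusted p = 0.00396) and gave no adjusted p for PIWIL4, TREX1 and TBC1D28, and with any single library left out the adjusted p of PIWIL4 lay between 0.0502 and 0.25.

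**Figure D1:**
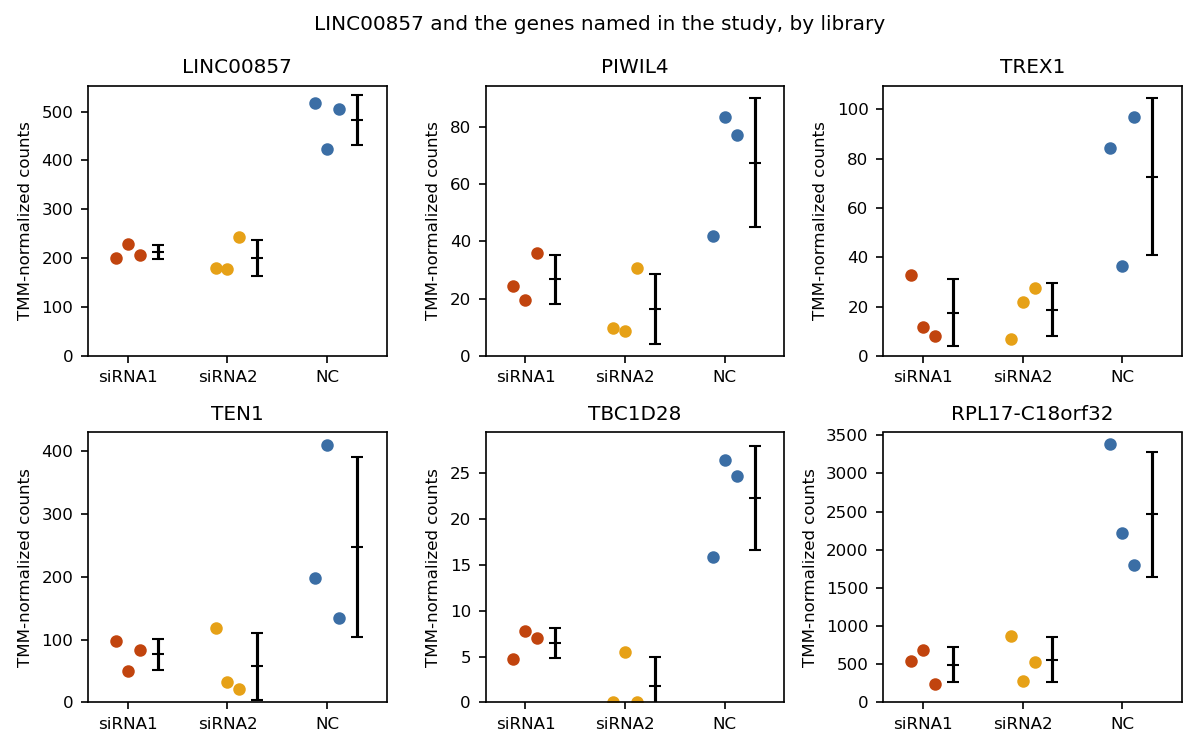
TMM-normalized counts (vertical axis, linear, from 0) of LINC00857 and of the 5 genes that the study names, by group on the horizontal axis. Each point is a library, and the bar beside each group is the mean ± SD of 3 libraries. In every panel all 6 knockdown points lie below the 3 NC points, and the NC points of TEN1, TREX1 and PIWIL4 are spread widely.

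The libraries were deep and much alike. Total counts ran between 51411860 and 57815092 per library, and TMM factors were 0.978 to 1.02 in the knockdown libraries and 1.00 in NC. The share of counts from the mitochondrial genome was 9.02 to 9.79% in the knockdown libraries and 10.03 to 10.23% in NC, with no overlap. Markers of colon epithelium summed to 3642 to 4117 CPM in the knockdown libraries and 3586 to 3777 CPM in NC. None of the 7 tested was called in the pooled test, and the model with 3 groups called 1 higher and 1 lower. Fibroblast markers summed to 26.8 to 65.6 CPM in the knockdown libraries and 34.1 to 41.9 CPM in NC, leukocyte markers to 4.79 to 10.97 and 6.40 to 7.43 CPM, and endothelial markers to 0.505 to 2.21 and 1.11 to 1.96 CPM, with overlapping ranges in each case and none of the 3 tested members of any list called. The 3 fibroblast markers tested, COL1A1, COL3A1 and PDGFRB, had a median log2 fold change of 1.34, against 0.012 over all genes, and PDGFRB, at 17 to 31.2 in the knockdown libraries and 0 to 14.9 in NC, lay wholly above NC. Their part in the rises described here was not tested. In bulk RNA, fewer cells of a type and less RNA per cell cannot be told apart.

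Knockdown raised 675 genes and lowered 589 in the pooled test, which is 3.19% and 2.79% of the 21130 genes tested, and 4286 genes had an unadjusted p under 0.05. All 6 knockdown libraries lay above all 3 NC libraries for 1660 genes (7.86%) and below them for 1645 (7.79%). Both conditions together left 675 genes higher (3.19%) and 586 lower (2.77%), since only 3 called genes, RAPGEF3, RN7SL1 and AL096870, overlapped between the groups, all of them lower. The changes were mostly small. The median log2 fold change was 0.42 for the genes that rose and -0.44 for those that fell, against 0.012 over all genes tested, and 64 genes rose by more than 1 and 37 fell by more than 1 on the log2 scale. The common genes were abundant, with a median of 2884 normalized counts for those that rose and 2597 for those that fell, against 469 over all genes tested. Of the genes that rose, 94.1% were protein coding, as were 94.5% of those that fell, against 68.8% of the genes tested. Long noncoding RNAs were 3.70% of the genes that rose and 1.54% of those that fell, against 17.2% of the genes tested.

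These counts depend on the control libraries and on how the siRNAs enter the model. Without NC replicate 1 the common response held 219 genes higher and 205 lower, without NC replicate 2 it held 221 and 219, and without NC replicate 3 it held 225 and 211. When the siRNA was a random block in limma-voom, so that the 3 libraries of an siRNA counted as sharing an effect, 134 genes were higher and 154 lower, and all 288 of them were in the common response of the pooled test. Of the 83 genes named here by rule that passed the pooled test, 28 passed with the random block, 34 kept their calls whichever of the 9 libraries was removed, and 25 passed both. These 25 were, besides LINC00857, the higher genes DHRS2, COL17A1, H1-2, KRTAP2-3, FTH1, RRM2, HSPA5, HSPA8, JUN and XPO5 and the lower genes SLC2A12, ACBD7, RIMKLA, CLIC3, PFKP, SLC2A1, BNIP3L, ANLN, TNRC6A, ID2, SMAD4, ITGA6, LAMA5 and ITGA2. The 9 that kept their calls without any library but not with the block were RPL17-C18orf32, HRNR, FLG, PMEPA1, AL606500, VWA5A, CYP4F12, IL6R and BIRC2, and HSP90AB1, JAK1 and DSP passed with the block but not without each library. Each other called gene named by rule lost its call with the block and without at least 1 of the libraries.

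**Figure D2:**
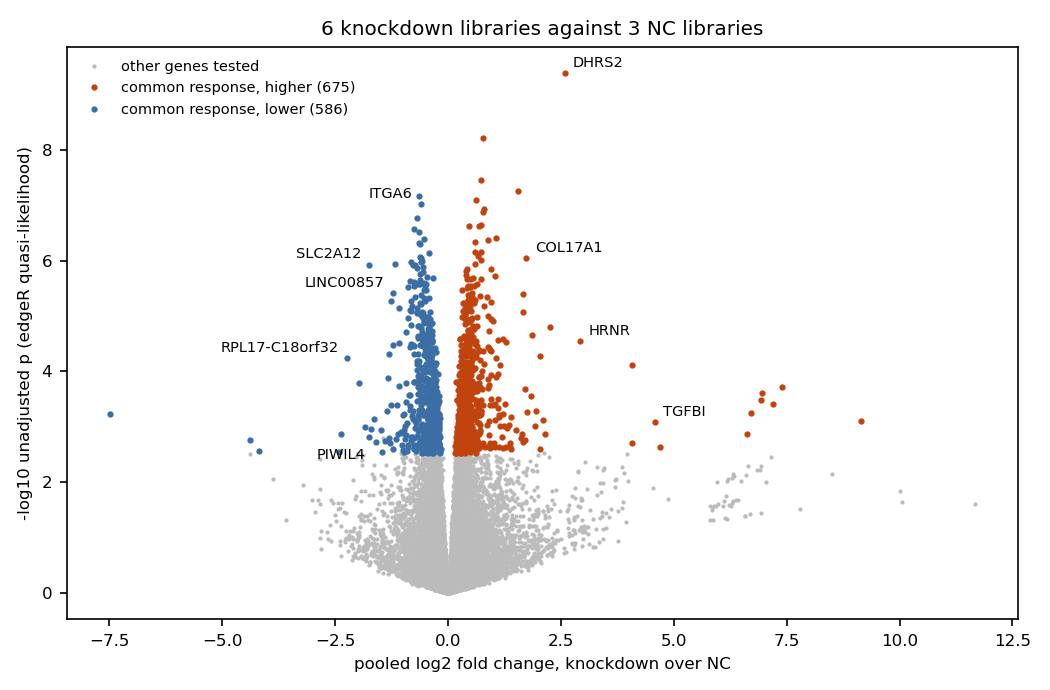
Pooled log2 fold change of knockdown over NC (horizontal axis) against the -log10 unadjusted p of the edgeR quasi-likelihood test (vertical axis) for the 21130 genes tested. Each point is a gene, red for the 675 genes of the common response that were higher, blue for the 586 that were lower and grey for the rest. DHRS2 has the smallest p, most coloured points lie within 1 of 0, and the points beyond 5 on either side are genes at or near 0 counts in one of the groups.

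HRNR and FLG were among the largest rises shared by both siRNAs. HRNR (hornerin) and FLG (filaggrin) encode related repetitive proteins of the cornified layer. HRNR had 371, 434 and 481 with siRNA1 and 736, 1033 and 1003 with siRNA2, against 65.5, 71.2 and 130.5 in NC (pooled log2 fold change 2.92 ± 0.42, adjusted p = 0.00303). Every siRNA2 library was above every siRNA1 library, and the siRNA1 minus siRNA2 difference of -1.11 was called (adjusted p = 0.0018). FLG had 215, 183 and 227 with siRNA1 and 299.7, 222 and 272 with siRNA2, against 68.5, 53.9 and 25.7 in NC (2.26 ± 0.31, adjusted p = 0.0022). KRTAP2-3, a keratin-associated protein of hair, was at 826 to 956 in the knockdown libraries and 256 to 333 in NC (1.55 ± 0.12, adjusted p = 0.000283), although it has near-identical family members among which reads may be split. GRHL3, a transcription factor of epidermal differentiation, was at 96.6 to 238 in the knockdown libraries and 42.7 to 57.6 in NC (1.70 ± 0.31, adjusted p = 0.00956). The levels of HRNR, FLG and GRHL3 in NC were low, at 25.7 to 130.5 normalized counts.

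DHRS2, a short-chain dehydrogenase/reductase that reduces dicarbonyl compounds, had the smallest p of all genes. It had 1526, 1463 and 1668 with siRNA1 and 1339.9, 1375 and 1441 with siRNA2, against 268, 204 and 261 in NC (2.59 ± 0.12, adjusted p = 8.69e-06). The 6 knockdown values were within a narrow band well above the NC values. H1-2, a linker histone, followed the same pattern, with 762 to 1099.5 in the knockdown libraries and 215 to 360.1 in NC (1.66 ± 0.19, adjusted p = 0.00116). COL17A1, the transmembrane collagen of hemidesmosomes, was at 360.1 to 515 in the knockdown libraries and 118 to 156 in NC (1.74 ± 0.17, adjusted p = 0.000689), COL5A3, a fibrillar collagen chain, at 92.7 to 277 in the knockdown libraries and 21.8 to 52.4 in NC (1.96 ± 0.40, adjusted p = 0.0174), and CCDC80, a secreted matrix protein, at 33.6 to 99 in the knockdown libraries and 17.9 to 25.4 in NC (1.61 ± 0.38, adjusted p = 0.0344). IGFBP3, which binds insulin-like growth factors, was at 68.8 to 151 in the knockdown libraries and 22.4 to 43.5 in NC (1.76 ± 0.36, adjusted p = 0.0184). TNFSF18, the ligand of the receptor GITR, rose more with siRNA1, where 305, 180.4 and 254 counts were read, than with siRNA2, with 141, 116 and 162, against 50.6, 70.2 and 41.5 in NC (1.83 ± 0.35, adjusted p = 0.0117). The noncoding genes LINC01910 and LINC02323 rose by 1.5 and 1.37 on the log2 scale (adjusted p = 0.0288 and 0.0427), and AL606500, which is not named further by the reference, by 1.87 (0.0027). With the siRNA as a random block DHRS2, COL17A1, H1-2 and KRTAP2-3 kept their calls, and adjusted p was 0.0836 for HRNR, 0.0645 for FLG and 0.226 to 0.638 for GRHL3, COL5A3, IGFBP3 and CCDC80.

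A few genes were counted in all 6 knockdown libraries and in no NC library, so they passed the count filter only through the knockdown libraries. They included DCT, an enzyme of melanin synthesis, LYVE1, a hyaluronan receptor of lymphatic vessels, GNA14, a G protein subunit, KRT38, a hair keratin, and the unnamed AC090946 and AP003778. DCT ran between 10 and 184 normalized counts in the knockdown libraries, which is at least 23.3-fold higher on average than the level that a floor of 3 counts per NC library allows, and the other 5 of these ran between 4.37 and 33.6, at least 3.97- to 6.85-fold higher. These bounds are for means of the 6 libraries, and the lowest DCT library, at 10, was closer to that floor. SLC25A30-AS1, an antisense RNA, was the only common gene at 0 in all 6 knockdown libraries, with 16.3 to 31.8 in NC (at least 6.8-fold lower). It passed the count filter only through NC, and since no source gives the strand of the counts it cannot be told apart from its antisense partner. TGFBI, a secreted matrix protein, had 51.9, 22.4 and 26 with siRNA1 and 68, 22.9 and 19.3 with siRNA2, against 0, 4.07 and 0 in NC (adjusted p = 0.0232), and it was the only called member of a list of 9 mesenchymal genes. It was not called with the random block (adjusted p = 0.552), the replicate block (0.0676) or limma-voom (0.0797). TGFBI too passed the count filter only through the knockdown libraries.

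The largest shared falls besides LINC00857 and RPL17-C18orf32 were led by SLC2A12, the glucose transporter GLUT12. It had 114, 100.5 and 124 with siRNA1 and 162, 97.1 and 118 with siRNA2, against 352, 452 and 392 in NC (-1.74 ± 0.18, adjusted p = 0.000693). RIMKLA, which joins glutamate to N-acetylaspartate, was the most abundant of the set. It had 399, 467 and 410.1 with siRNA1 and 379.6, 331 and 395 with siRNA2, against 1004, 839 and 827 in NC (-1.16 ± 0.12, adjusted p = 0.000693). The groups stood far apart for both genes, and libraries of the same group differed little. CLIC3, an intracellular chloride channel protein, was at 128 to 155 in the knockdown libraries and 287 to 312 in NC (-1.08 ± 0.14, adjusted p = 0.00146), ACBD7, an acyl-CoA-binding protein, at 127 to 255 in the knockdown libraries and 431 to 574 in NC (-1.31 ± 0.20, adjusted p = 0.00399), and VWA5A at 99.5 to 151 in the knockdown libraries and 255 to 299 in NC (-1.21 ± 0.18, adjusted p = 0.0033). CYP4F12, a cytochrome P450, fell by 1.33 (adjusted p = 0.00736). Ion transport genes among the falls were SLC4A8, a sodium-driven chloride-bicarbonate exchanger (-1.38, adjusted p = 0.0376), and SCN4A, the sodium channel of skeletal muscle (-1.22, 0.0447). PADI3, a peptidylarginine deiminase that acts on filaggrin in skin, was at 19.6 to 48.8 in the knockdown libraries and 78.3 to 96.9 in NC (-1.47 ± 0.34, adjusted p = 0.0283). SDCBP2, a PDZ protein, changed by -1.29 (0.039), the noncoding SERPINB9P1 by -1.70 (0.0277), and the noncoding AC148477 (ENSG00000256943) and AL360270 (ENSG00000261654), whose symbols are shared by other genes of the table, by -1.15 and -1.46 (0.0357 and 0.0477). With the random block SLC2A12, RIMKLA, CLIC3 and ACBD7 were called, the adjusted p of VWA5A and CYP4F12 was 0.054 and 0.0569, and the others were at 0.154 to 0.441.

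**Figure D3:**
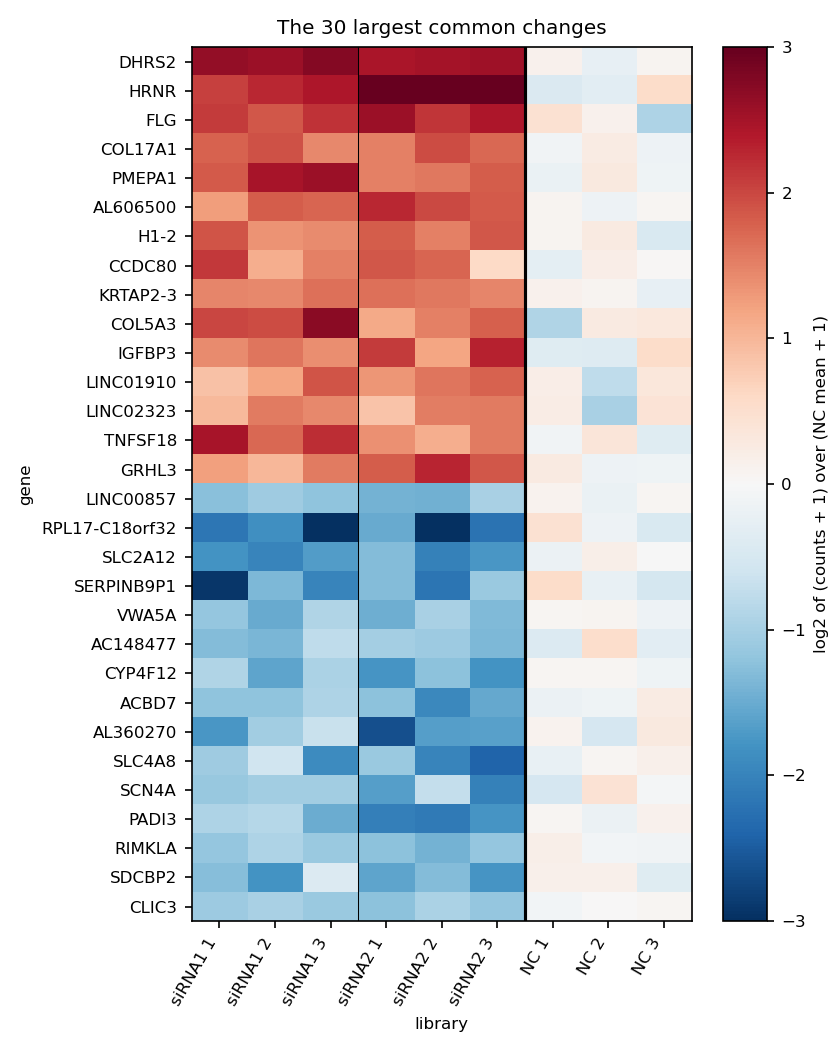
The 15 largest rises and 15 largest falls of the common response (rows) in the 9 libraries (columns, siRNA1, siRNA2 and then NC). Colour is the log2 ratio of normalized counts plus 1 to the NC mean plus 1, red above and blue below, and values beyond 3 take the end colours. Every row has 1 sign in all 6 knockdown columns, which the rule for common genes fixed in advance. HRNR is redder with siRNA2, and SDCBP2 is pale in siRNA1 library 3.

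Among abundant genes, smaller changes were measured with high precision. The genes of this paragraph were chosen after their values were seen, for their small p. GANAB, the catalytic subunit of glucosidase II that trims glycans in the endoplasmic reticulum, had 28950.3, 29287 and 28741 with siRNA1 and 30765, 31520.4 and 31209 with siRNA2, against 17520.0, 17826 and 17264 in NC (0.78 ± 0.048, adjusted p = 6.47e-05). DKK1, a secreted inhibitor of Wnt signaling, was at 15224 to 17438 in the knockdown libraries and 9613 to 9919 in NC (0.73 ± 0.053, adjusted p = 0.000246). TCOF1 and NOLC1, nucleolar proteins that act in ribosomal RNA synthesis, were at 10376 to 11582 in the knockdown libraries and 7141 to 7261 in NC and at 33149 to 38890.3 in the knockdown libraries and 21255 to 21875 in NC (0.63 ± 0.05, adjusted p = 0.000285 and 0.74 ± 0.065, adjusted p = 0.000392). Of the genes that fell, MT-RNR1, the 12S ribosomal RNA of mitochondria, had 61484, 58342 and 62297 with siRNA1 and 67714, 60176 and 61512 with siRNA2, against 100588, 96879 and 92434 in NC (-0.64 ± 0.05, adjusted p = 0.000283). PLOD2, a lysyl hydroxylase of collagen, was at 2068 to 2309 in the knockdown libraries and 3430.2 to 3634 in NC (-0.69 ± 0.059, adjusted p = 0.000363), ANXA2, a membrane-binding annexin, at 51639 to 61263 in the knockdown libraries and 87042 to 92936 in NC (-0.65 ± 0.058, adjusted p = 0.000425), and SMURF2, a ubiquitin ligase that limits TGF-beta signaling, at 9282 to 11436 in the knockdown libraries and 17446 to 18004 in NC (-0.77 ± 0.08, adjusted p = 0.000693). All 8 of these genes passed with each library left out and with the random block.

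Growth factor signals through ERK are followed within minutes by a set of immediate early genes. Of 21 such genes and ERK feedback regulators tested, 8 rose and 1 fell in the common response, against 3.19% and 2.77% of all genes tested, and the median log2 fold change was 0.12, against 0.012 over all genes. The members that rose were the AP-1 subunits FOS, FOSB and JUN, the transcription factors EGR1 and MYC, IER2, IER3 and the ERK phosphatase DUSP5. FOS had 513, 350.1 and 529 with siRNA1 and 542, 543 and 528 with siRNA2, against 303, 246 and 263 in NC (0.89 ± 0.16, adjusted p = 0.00945). JUN had 2440.4, 2295 and 2429.8 with siRNA1 and 2315, 2294 and 1998 with siRNA2, against 1589, 1546 and 1519 in NC (0.57 ± 0.076, adjusted p = 0.00214). EGR1 had 3667, 3686 and 3934 with siRNA1 and 7616, 7423 and 8041 with siRNA2, against 2423, 2327 and 2227 in NC (1.30 ± 0.29, adjusted p = 0.027). EGR1 was thus far higher with siRNA2 than with siRNA1, and MYC was too, at 11594, 11622 and 11694 with siRNA1 and 18784, 18882 and 18316 with siRNA2, against 9003, 8878 and 8780.0 in NC (0.77 ± 0.19, adjusted p = 0.0392). IER2 was at 7212 to 9557 in the knockdown libraries and 5895 to 6180.2 in NC (0.49 ± 0.10, adjusted p = 0.0153), FOSB at 261 to 328 in the knockdown libraries and 90.4 to 194 in NC (1.11 ± 0.22, adjusted p = 0.0162), IER3 at 11138 to 16086 in the knockdown libraries and 9069 to 9363 in NC (0.58 ± 0.12, adjusted p = 0.0214) and DUSP5 at 10859 to 13269.6 in the knockdown libraries and 9669 to 9921 in NC (0.29 ± 0.076, adjusted p = 0.0498). The member that fell was CCND1, the cyclin of the G1 phase, which had 58771, 60265 and 59748 with siRNA1 and 78002, 79823 and 79409 with siRNA2, against 92799, 94092 and 95022 in NC (-0.44 ± 0.11, adjusted p = 0.0428). The feedback regulators DUSP6, SPRY2, SPRY4, ETV4 and ETV5 were not called in the pooled test, with log2 fold changes of 0.08, 0.044, 0.23, -0.20 and -0.19. Of the 21 genes, 8 had all 6 knockdown libraries above NC and 5 had them below, against 7.86% and 7.79% of all genes. The model with 3 groups called 10 of the 21 higher and 5 lower. AREG and EREG, ligands of the EGF receptor that stand on no list here and were named after their values were seen, rose by 1.04 and 0.90 (adjusted p = 0.000875 and 0.0323). With the siRNA as a random block, JUN (adjusted p = 0.0379) and AREG (0.0033) were called, and FOS, FOSB, EGR1, MYC, IER2, IER3, DUSP5, CCND1 and EREG were at 0.0518 to 0.208.

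Some receptor subunits and kinases of cytokine signaling fell. In this pathway a cytokine receptor activates Janus kinases, which phosphorylate STAT transcription factors. Of 31 genes tested, 1 rose and 5 fell, against 3.19% and 2.77% of all genes tested, and the median was -0.13. All 6 knockdown libraries lay below NC for 12 of these genes and above NC for 3, against 7.79% and 7.86% of all genes. The receptor chains that fell were IL6R, LIFR and IL10RB. IL6R had 663, 666 and 624 with siRNA1 and 548, 559.8 and 617 with siRNA2, against 903, 933 and 1063 in NC (-0.66 ± 0.10, adjusted p = 0.00401). LIFR was at 1202 to 1871 in the knockdown libraries and 2376 to 2441 in NC (-0.66 ± 0.15, adjusted p = 0.0288) and IL10RB at 703 to 924 in the knockdown libraries and 1045 to 1159.5 in NC (-0.48 ± 0.11, adjusted p = 0.0253). Of the kinases, JAK1 had 5950.2, 5904 and 6022 with siRNA1 and 4673, 4785 and 4999 with siRNA2, against 7339, 7528 and 7505 in NC (-0.47 ± 0.091, adjusted p = 0.0133), and TYK2 was at 4042 to 4740.3 in the knockdown libraries and 5344 to 5751 in NC (-0.31 ± 0.064, adjusted p = 0.0174). IL6ST, the shared chain of the IL-6 receptor family, had a log2 fold change of -0.58 (adjusted p = 0.0572). STAT3 was the member that rose, at 5606 to 6355 in the knockdown libraries and 4936 to 5361 in NC (0.25 ± 0.06, adjusted p = 0.0354). JAK1 and LIFR passed with the random block (adjusted p = 0.0317 and 0.0475), IL6R was at 0.0542, and TYK2, IL10RB and STAT3 were at 0.103, 0.153 and 0.288. Leaving out any single NC library ended the calls of JAK1, TYK2, LIFR, IL10RB and STAT3, with adjusted p up to 0.0641, 0.112, 0.109, 0.132 and 0.186.

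Cell adhesion and TGF-beta genes held some of the best measured changes. Integrins are receptors for the matrix, and laminins are matrix proteins of the basement membrane. Of 20 tested, 2 rose and 4 fell, against 3.19% and 2.77% of all genes tested. ITGA6, a laminin receptor subunit, had 12563, 13435 and 14234 with siRNA1 and 13035, 12737 and 13396 with siRNA2, against 19883, 20112 and 20171 in NC (-0.60 ± 0.048, adjusted p = 0.000292). LAMA5 had 23749, 25775 and 25269 with siRNA1 and 21732, 22034 and 22201 with siRNA2, against 35487, 35711 and 36911 in NC (-0.62 ± 0.062, adjusted p = 0.000689). ITGA2, a collagen receptor subunit, was at 7909.7 to 9567 in the knockdown libraries and 11446 to 11635 in NC (-0.39 ± 0.065, adjusted p = 0.00634) and ITGA5, the fibronectin receptor subunit, at 6473 to 7053 in the knockdown libraries and 7813 to 8388 in NC (-0.25 ± 0.049, adjusted p = 0.013). The laminin chains LAMA4 and LAMC1 rose by 0.72 and 0.30 (adjusted p = 0.0298 and 0.0117). Of 26 TGF-beta and BMP pathway genes, 1 rose and 2 fell, against 3.19% and 2.77% of all genes tested. The gene that rose is not reported here. ID2, a BMP target that inhibits helix-loop-helix factors, was at 1970.2 to 2397 in the knockdown libraries and 3178 to 3592 in NC (-0.66 ± 0.074, adjusted p = 0.000937), and SMAD4, the shared partner of receptor SMADs, at 3826 to 4009 in the knockdown libraries and 4784 to 5188 in NC (-0.35 ± 0.05, adjusted p = 0.00271). PMEPA1, a target and inhibitor of TGF-beta signaling and one of the largest rises, was at 110.4 to 230.1 in the knockdown libraries and 32.8 to 46.8 in NC (2.05 ± 0.32, adjusted p = 0.00417). ITGA6, LAMA5, ITGA2, ID2 and SMAD4 passed with each library left out and with the random block, whereas ITGA5, LAMA4, LAMC1 and PMEPA1 were at 0.135, 0.22, 0.0739 and 0.177 with the block. Of 26 Hippo pathway genes and YAP targets none rose and 2 fell, against 3.19% and 2.77% of all genes tested. The 2 were the kinase cofactor MOB1A (-0.40 ± 0.087, adjusted p = 0.0235) and the scaffold WWC1 (-0.33 ± 0.075, adjusted p = 0.0301). Both fell more with siRNA2, and were at 0.0693 and 0.102 with the block.

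Genes of oxygen sensing and glucose use changed only downward in the pooled test, although with upper quartile scaling 2 glycolytic genes were called higher, and the model with 3 groups called 7 higher and 11 lower. Of 23 targets of hypoxia-inducible factor tested, none rose and 4 fell, against 3.19% and 2.77% of all genes tested, with a median of -0.20. BNIP3L, a mitophagy receptor, had 1995, 1843 and 1702 with siRNA1 and 2334, 2224 and 2234 with siRNA2, against 3958, 3503 and 3995 in NC (-0.89 ± 0.10, adjusted p = 0.000955). P4HA2, a collagen prolyl hydroxylase, was at 2355 to 2775 in the knockdown libraries and 3065 to 3254 in NC (-0.30 ± 0.066, adjusted p = 0.0221), and EGLN1, the oxygen sensor that hydroxylates HIF, at 4001 to 4724 in the knockdown libraries and 4943 to 5465 in NC (-0.26 ± 0.067, adjusted p = 0.0424). INSIG2, a regulator of sterol synthesis, also fell (-0.58, adjusted p = 0.0449). Other members had log2 fold changes of -0.20 (VEGFA), -0.41 (BNIP3) and 0.23 (HILPDA) and were not called. Of 22 glycolytic genes, none rose and 3 fell, against the same shares, with a median of -0.075, and these were the entry steps. SLC2A1, the glucose transporter GLUT1, was at 18262 to 20113 in the knockdown libraries and 22884 to 23440.2 in NC (-0.30 ± 0.044, adjusted p = 0.00347), HK1, a hexokinase, at 5933 to 6437 in the knockdown libraries and 6872 to 7095 in NC (-0.19 ± 0.048, adjusted p = 0.0413), and PFKP, a phosphofructokinase, at 16759 to 18871 in the knockdown libraries and 22514 to 22901 in NC (-0.35 ± 0.05, adjusted p = 0.00303). BNIP3L, SLC2A1 and PFKP passed with the random block, and the adjusted p of P4HA2, EGLN1 and HK1 was 0.207, 0.252 and 0.252.

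HSPA5, HSPA8 and HSP90AB1, chaperone genes of high abundance, rose. HSPA5, the Hsp70 chaperone of the endoplasmic reticulum also known as BiP, was at 48323 to 51819.6 in the knockdown libraries and 40212 to 41185 in NC (0.30 ± 0.039, adjusted p = 0.00174). XBP1, a transcription factor of the unfolded protein response, was at 2952 to 3608 in the knockdown libraries and 2231 to 2508 in NC (0.42 ± 0.077, adjusted p = 0.00959). In that list of 20, 3 rose and 1 fell, against 3.19% and 2.77% of all genes tested. The member that fell was the disulfide isomerase PDIA4 (-0.25 ± 0.046, adjusted p = 0.0104). Of 12 heat shock chaperones, 2 rose and 1 fell, against the same shares. HSPA8, the constitutive Hsp70 of the cytosol, had 143935, 132731 and 131644 with siRNA1 and 156419, 148598 and 153995 with siRNA2, against 110474, 107843 and 110559 in NC (0.40 ± 0.06, adjusted p = 0.00367). HSP90AB1, the constitutive Hsp90, was at 249466 to 262548 in the knockdown libraries and 224033 to 226175 in NC (0.17 ± 0.031, adjusted p = 0.0081), and HSPH1, the Hsp110 chaperone, at 15427 to 17591 in the knockdown libraries and 18435 to 19459 in NC (-0.20 ± 0.05, adjusted p = 0.0395). Of 26 genes of the integrated stress response, 2 rose and none fell, against the same shares. The 2 were ATF4, its transcription factor (0.23 ± 0.055, adjusted p = 0.0354), and PPP1R15A, the phosphatase subunit that ends the response (0.44 ± 0.11, adjusted p = 0.0348). HSPA5, HSPA8 and HSP90AB1 passed with the random block, and XBP1, PDIA4, HSPH1, ATF4 and PPP1R15A were at 0.143, 0.0545, 0.189, 0.259 and 0.166.

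Cell cycle, p53 and apoptosis lists held these common changes, where 3.19% of all genes tested rose and 2.77% fell. Of 35 G1/S and replication genes 2 rose, RRM2, a subunit of ribonucleotide reductase, at 23360.1 to 26439 in the knockdown libraries and 18222 to 18408 in NC (0.44 ± 0.053, adjusted p = 0.00125), and GINS4, a subunit of the replicative helicase (0.36 ± 0.086, adjusted p = 0.0338). Of 30 G2/M genes none rose and 2 fell, ANLN, a cytokinesis scaffold (-0.31 ± 0.054, adjusted p = 0.0081), and HMMR, a spindle protein (-0.33 ± 0.062, adjusted p = 0.0106). In that list 5 genes had all 6 knockdown libraries below NC, against 7.79% of all genes, and none had them above. The model with 3 groups called 14 of these genes lower and none higher. The p53 targets counted 3 higher and 1 lower of 27. TP53I3, an oxidoreductase, was at 954 to 1306 in the knockdown libraries and 618 to 764 in NC (0.73 ± 0.13, adjusted p = 0.00707), and SESN2, an inhibitor of mTORC1 signaling, at 1757 to 2127 in the knockdown libraries and 1389 to 1446 in NC (0.45 ± 0.081, adjusted p = 0.00887), while the death receptor TNFRSF10B was at 11663 to 13495 in the knockdown libraries and 14711 to 14934 in NC (-0.24 ± 0.06, adjusted p = 0.0439). CDKN1A and MDM2, the best known targets of p53, were not called, with 0.33 and -0.17. Of 30 apoptosis genes 1 rose, the BH3 protein BCL2L11 (0.33 ± 0.076, adjusted p = 0.0288), and 2 fell, BIRC2, an inhibitor of apoptosis (-0.35 ± 0.054, adjusted p = 0.00409), and TNFRSF10B. RRM2 and ANLN passed with the random block, and GINS4, HMMR, TP53I3, SESN2, TNFRSF10B, BCL2L11 and BIRC2 were at 0.057 to 0.301.

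In the machinery that carries small RNAs 2 of 15 tested members rose and 1 fell, against 3.19% and 2.77% of all genes tested. TNRC6A, the GW182 protein that couples Argonaute to deadenylation, was at 7286 to 8072 in the knockdown libraries and 9607 to 10178 in NC (-0.36 ± 0.05, adjusted p = 0.00245). XPO5, which exports microRNA precursors, was at 9402 to 9757 in the knockdown libraries and 7699 to 8032 in NC (0.29 ± 0.042, adjusted p = 0.00329), and DROSHA, which cuts primary microRNAs, at 5870.1 to 6556 in the knockdown libraries and 5335 to 5531 in NC (0.22 ± 0.053, adjusted p = 0.0377). TNRC6A and XPO5 passed with the random block, and DROSHA was at 0.238. AGO2 and DICER1 were not called, with log2 fold changes of 0.14 and -0.20.

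In metabolic lists the changes below were called, where 3.19% of all genes tested rose and 2.77% fell. In iron handling and ferroptosis 1 of 27 rose and none fell. FTH1, the ferritin heavy chain that stores iron, had 85733, 84621 and 85222 with siRNA1 and 98343, 100672 and 102229 with siRNA2, against 65612, 64302 and 64702 in NC (0.52 ± 0.072, adjusted p = 0.00261). Of 21 cholesterol synthesis genes 1 fell, the sterol oxidase MSMO1, at 4587, 4243 and 4152 with siRNA1 and 6340.4, 6282 and 6551 with siRNA2, against 8084, 8096 and 7901 in NC (-0.58 ± 0.15, adjusted p = 0.0497). Of 22 NRF2 targets 1 rose and 1 fell. The 1 that rose was PGD, an enzyme of the pentose phosphate pathway, at 13098 to 14842 in the knockdown libraries and 11655 to 12539.9 in NC (0.23 ± 0.058, adjusted p = 0.0409). Of 28 lysosome and autophagy genes 1 rose, the kinase ULK1 (0.35 ± 0.074, adjusted p = 0.019), and 2 fell, among them the hydrolase CTSB (-0.21 ± 0.046, adjusted p = 0.0256). FTH1 passed with the random block, and MSMO1, PGD, ULK1 and CTSB were at 0.066 to 0.217.

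Immune and lineage lists held the calls below, where 3.19% of all genes tested rose and 2.77% fell. Of 32 interferon response genes and nucleic acid sensors none rose and 1 fell, TLR3, an endosomal receptor of double-stranded RNA, at 154 to 233 in the knockdown libraries and 315 to 326 in NC (-0.65 ± 0.16, adjusted p = 0.042). Of the same 32 genes, 7 had all 6 knockdown libraries below NC, against 7.79% of all genes, and none had them above. The model with 3 groups called 8 of them lower and 1 higher. Of 15 NF-kB targets and cytokines 1 rose, NFKB1, which encodes p50 of NF-kB (0.23 ± 0.053, adjusted p = 0.0287), and none fell. Of 17 MHC class I and checkpoint genes none rose and 2 fell, the MHC light chain B2M at 10916 to 12673 in the knockdown libraries and 13643 to 14262 in NC (-0.25 ± 0.057, adjusted p = 0.0303) and CD47, the signal that inhibits phagocytosis, at 2242 to 2550.5 in the knockdown libraries and 2893 to 3034 in NC (-0.31 ± 0.06, adjusted p = 0.0135). CD274 (PD-L1) had a log2 fold change of -0.08 and was not called. Epithelial genes counted 2 higher, the desmosomal DSP (0.33 ± 0.056, adjusted p = 0.00665) and the splicing regulator ESRP2 (0.31 ± 0.066, adjusted p = 0.0213), and 1 lower, the tight junction protein CLDN4 (-0.42 ± 0.077, adjusted p = 0.00929), of 19. Of 20 genes of nonsense-mediated decay and splicing 1 fell, the kinase CLK1 (-0.24 ± 0.058, adjusted p = 0.0344). Of 11 colonic lineage and stem cell genes none was called in the pooled test, while the model with 3 groups called 2 higher. DSP passed with the random block, and TLR3, NFKB1, B2M, CD47, ESRP2, CLDN4 and CLK1 were at 0.0653 to 0.272.

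**Figure D4:**
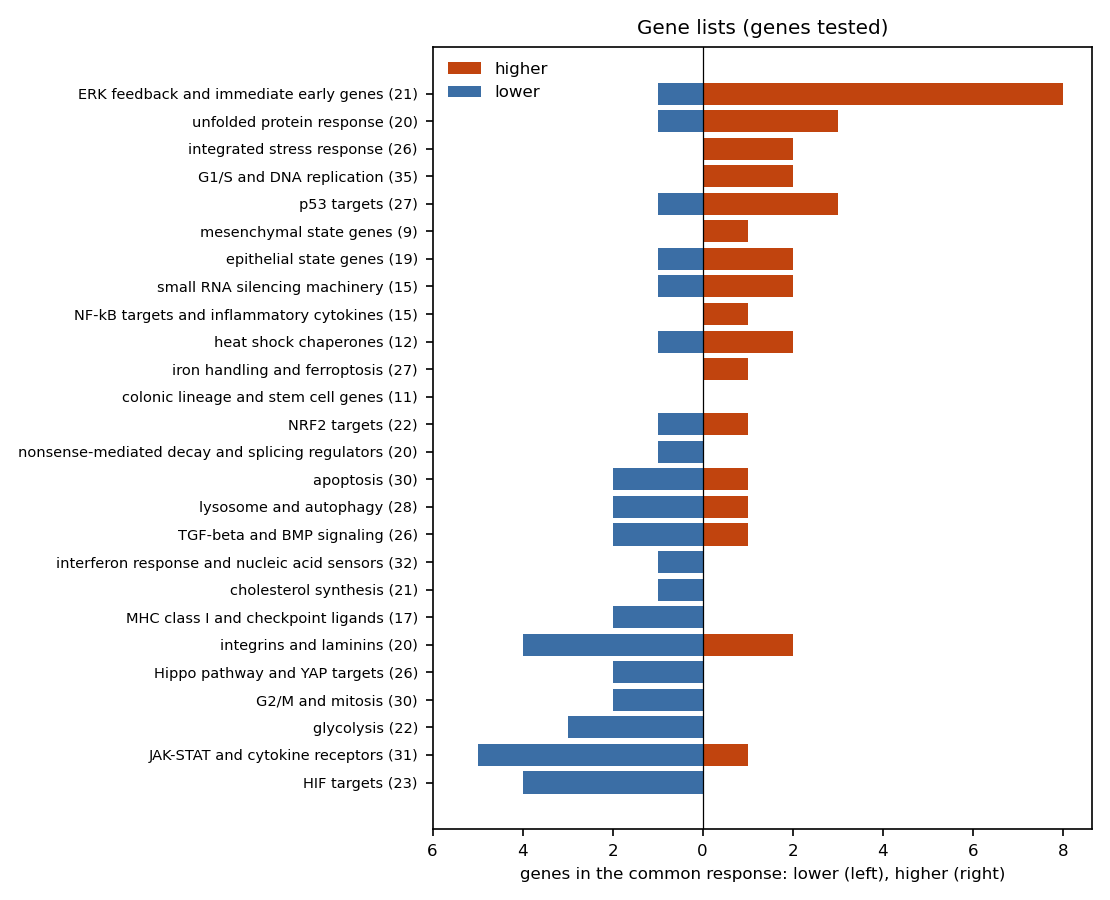
Number of genes of each list in the common response, higher to the right of 0 (red) and lower to the left (blue), with the number tested in parentheses. The list of ERK feedback and immediate early genes has the longest bar to the right, 8 of 21, and JAK-STAT and cytokine receptors the longest to the left, 5 of 31. Over all genes tested the shares were 3.19% and 2.77%.

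The siRNAs also differed from each other. Between siRNA1 and siRNA2, 6216 of 21130 genes (29.4%) were called in the direct test of their difference, and of the 1261 common genes 385 (30.5%) were, 196 among those that rose and 189 among those that fell. Of the 2044 genes with no overlap that missed the pooled call, 688 (33.7%) differed between the siRNAs. Over the 15091 genes with a mean of at least 50 normalized counts, 21.0% of the squared deviation of log2 counts lay between knockdown and NC, 29.2% between the siRNAs and 49.7% within groups. Within the common genes of that depth, chosen on this contrast, the shares were 79.8% between knockdown and NC and 9.99% between the siRNAs.

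Sequences in the 3′ UTR were a property that did not enter the choice of the common genes. The seed sites of both siRNAs, given above with the targets, were searched on the transcript strand of the longest annotated 3′ UTR of 12554 genes that averaged 50 normalized counts or more (GENCODE v29). The siRNA1 site was in 25.9% of 549 common genes that fell, in 6.30% of 619 that rose and in 12.2% of all 12554, and the siRNA2 site was in 27.3%, 5.65% and 12.8%. At least 1 of the sites was in 236 of the genes that fell (43.0%, Wilson 95% interval 38.9 to 47.2%), in 68 of those that rose (10.99%, 8.76 to 13.7%) and in 2773 of all genes (22.1%), and both were in 56 (10.2%), 6 (0.969%) and 372 (2.96%). The 3′ UTRs of the genes that fell were longer, with a median of 1876 bases, against 1506 in those that rose and 1364 over all genes. Per kilobase of 3′ UTR, the siRNA1 site occurred 0.118 times in genes that fell, 0.0366 times in genes that rose and 0.0716 times over all genes, and the siRNA2 site 0.128, 0.0318 and 0.0764 times. Among 3′ UTRs of over 2500 bases, 71.7% of the genes that fell held a site, against 25.6% of those that rose and 46.6% of all.

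Sites searched for comparison were chosen after the data had been seen. GTGAAAA and GTGAAGA, which share all bases with the siRNA sites except the one where these differ from each other, occurred 0.136 and 0.0989 times per kilobase in genes that fell, 0.109 and 0.0978 times in genes that rose, and 0.129 and 0.0933 times over all genes. TGTCACG, the site that pairs with the seed of the NC siRNA, was in 3.83% of genes that fell, 4.20% of genes that rose and 3.15% of all genes. By kind of site, the median pooled log2 fold change was -0.13 for the 372 genes with sites of both siRNAs, -0.060 for 1161 with the siRNA1 site alone, -0.067 for 1240 with the siRNA2 site alone and 0.026 for 9781 with none, and 15.1%, 7.41%, 7.58% and 3.20% of these genes fell in the common response. Genes with the siRNA1 site alone had a median of -0.12 with siRNA1 and 0.0015 with siRNA2, and genes with the siRNA2 site alone had 0.020 with siRNA1 and -0.19 with siRNA2. What part seed pairing has in the common falls was not tested. Of the 549 genes that fell with an annotated 3′ UTR, 313 held neither site.

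**Figure D5:**
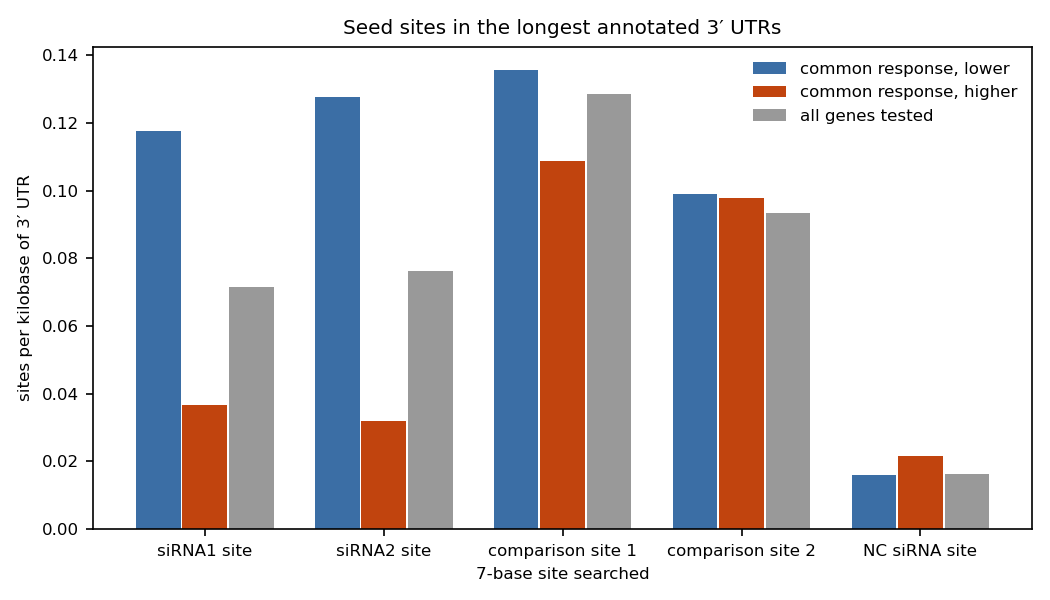
Seed sites per kilobase of 3′ UTR (vertical axis, from 0) for 5 sites of 7 bases (horizontal axis), in common genes that were lower (blue), common genes that were higher (red) and all genes tested (grey). The comparison sites share all bases but 1 with the siRNA sites. For both siRNA sites the blue bar is the tallest of its 3 and the red bar the shortest, and for both comparison sites the 3 bars differ less.

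Windows around the seed sites of genes that fell show how the sites lie in named members, with the 7 bases of the site in capitals and 11 bases before and 12 after it. RIMKLA has a site of each siRNA in its 3′ UTR, and IL6R has 3 sites. SLC2A12 and SMAD4 hold the siRNA1 site alone, and ITGA6 and ID2 the siRNA2 site alone. All windows lie in the last exon of the transcript.
RIMKLA siRNA1 site, chr1:42417764-42417793 (+): tggctaacacaGTGAACAaaaaattagtcg
RIMKLA siRNA2 site, chr1:42415021-42415050 (+): agtagttttgaGTGAATAaaatctggacta
IL6R siRNA1 site, chr1:154468695-154468724 (+): cccacctggtaGTGAACAgggcccagtggg
IL6R siRNA1 site, chr1:154469402-154469431 (+): ttgcatttaaaGTGAACAttgtgtttggaa
IL6R siRNA2 site, chr1:154465974-154466003 (+): agggtgagtggGTGAATAatacagtatctc
SLC2A12 siRNA1 site, chr6:133988882-133988911 (-): ttctttttttgGTGAACAttgaaaaacagg
SMAD4 siRNA1 site, chr18:51081538-51081567 (+): ccattcctcctGTGAACAgtgcagatttac
ITGA6 siRNA2 site, chr2:172504783-172504812 (+): ttcctagctgtGTGAATAcctgctcacgtc
ID2 siRNA2 site, chr2:8684019-8684048 (+): aaaggtggagcGTGAATAccagaaggatcc
SLC2A12, SMAD4, ITGA6 and ID2 fell with both siRNAs. The log2 fold change against NC with siRNA1 and with siRNA2 was -1.82 and -1.66 for SLC2A12, -0.37 and -0.34 for SMAD4, -0.58 and -0.62 for ITGA6, and -0.71 and -0.62 for ID2. JAK1, TNRC6A, LAMA5, ITGA2, PFKP, CLIC3 and ACBD7, which fell, and PIWIL4, TREX1, TEN1 and TBC1D28 hold neither site in the 3′ UTR searched. That 3′ UTR had 45 bases in TREX1, 46 in CLIC3, 223 in PFKP, 271 in LAMA5, 363 in TEN1 and 429 in PIWIL4. It had 1007 to 4180 bases in the others. Among all genes with 3′ UTRs under 1000 bases 6.76% held a site, so absence from a short one tells little. Of the genes named by rule that rose, 3 held a site, CCDC80, BCL2L11 and GINS4.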

How the data were processed

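RNA sequencing of HCT116 cells by Lianchuan Biotechnology gave the 9 libraries, grouped by their labels. The authors deposited raw counts per Ensembl gene for 35817 genes, whole numbers that are not normalized, and all 9 count columns were used. Genome build hg19 is named in the submitters' processing notes. Which aligner, counter, annotation and strand setting made the counts is not stated in any source used here. Symbols come from the deposited table. Gene types, 3′ UTRs and target windows come from GENCODE v29 (GRCh38), joined by gene ID, and no position was carried between builds.

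Genes were filtered by filterByExpr (minimum count 10, minimum total count 15) and scaled by TMM. The pooled test was run in edgeR 4.0.16 (R 4.3.3) as a quasi-likelihood F test with 2 arms and no covariate, so differences between the siRNAs enter its error, with Benjamini-Hochberg adjustment over the 21130 genes kept and a threshold of 0.05. siRNA1, siRNA2 and their difference came from a model with 3 groups. The comparisons of each siRNA with NC share the NC libraries. Values after ± are SE of a log2 fold change. Counts were simulated for 21129 genes with the means and the within-group spread of these libraries, and with no difference between the siRNAs. The pooled test then called 59.7% of genes changed 1.5-fold, 82.1% of those changed 2-fold and 95.5% of those changed 4-fold. It also called 7 unchanged genes. Genes with few counts were not among those changed. On the real counts the median SE over all genes was 0.188 in the pooled test. It was 0.136 for the mean of the siRNAs in the model with 3 groups. The simulated rates may therefore overstate what the pooled test detects in these libraries. Alternatives used DESeq2 1.42.0 and limma 3.58.1. No 2 libraries agreed within sampling noise, and all were kept. Intervals cover counting error only.

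The members and the 30 gene lists were chosen with earlier results of these data known. Genes are named by rule: LINC00857 and the 5 genes of the study, per direction the 15 common genes with a mean of at least 50 normalized counts and the largest smaller change of the 2 siRNAs, and per list up to 3 common genes with the smallest p. The 24 further genes described with full values, and those listed without calls, were chosen after their values were seen. Results for a few genes are not reported here. Seed sites were derived from the guide strands in the study's methods and matched exactly over 7 bases.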

Additional observations from a re-analysis of the deposited data

Results flagged for a closer look

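Of the 111 genes described, 37 changed by unequal amounts with the 2 siRNAs in the direct edgeR test of siRNA1 against siRNA2 (adjusted p under 0.05), although each was on the same side of NC in all 6 knockdown libraries. Values in parentheses are siRNA1 minus siRNA2 differences in log2 fold change. The rise was larger with siRNA2 for HRNR (-1.11), GRHL3 (-0.73), FTH1 (-0.24), TP53I3 (-0.32), RRM2 (-0.13), PPP1R15A (-0.31), HSPA8 (-0.17), IER2 (-0.32), PGD (-0.14), EGR1 (-1.03), MYC (-0.68), IER3 (-0.41), AREG (-0.36), EREG (-0.76), GANAB (-0.10), NOLC1 (-0.19) and LAMC1 (-0.13). It was larger with siRNA1 for TNFSF18 (0.82), DSP (0.14), DUSP5 (0.23) and LAMA4 (0.40). The fall was larger with siRNA1 for MSMO1 (-0.56), BNIP3L (-0.29), TNFRSF10B (-0.17), TYK2 (-0.16), ITGA2 (-0.19), CCND1 (-0.41) and SMURF2 (-0.27), and larger with siRNA2 for ANLN (0.13), PDIA4 (0.094), JAK1 (0.31), MOB1A (0.27), WWC1 (0.23), CLDN4 (0.18), LAMA5 (0.18), LIFR (0.54) and COL12A1 (0.33). The largest of these differences were those of HRNR and EGR1.

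A single knockdown library stood far from the other 5 for 5 of the 111 genes, where chance flags about 1 in 20 groups. SDCBP2 had 100 normalized counts in siRNA1 library 3, against at most 54.7 in the others and at least 105 in NC. FOS had 350.1 in siRNA1 library 2, against at least 513 in the others. JUN had 1998 in siRNA2 library 3, against at least 2294 in the others. ULK1 had 2106 in siRNA2 library 3, against at most 1890 in the others. ITGA5 had 6473 in siRNA1 library 3, against at least 6891 in the others.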

How the results depend on the processing

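LINC00857 was called lower under every alternative that tested it, which all did except that of protein-coding genes alone. The counts of changed genes depended on the model, and no named gene turned its direction. The common response held 1157 genes higher and 1086 lower by DESeq2 (1294 and 1143 without the condition on overlap), and 1451 and 1402 (2375 and 2480) for the mean of the siRNAs in a model with 3 groups, where differences between the siRNAs do not enter the error. With the siRNA as a random block in limma-voom (consensus correlation 0.398) 134 were higher and 154 lower with and without that condition. Leaving out a single library gave 219 to 633 higher and 205 to 579 lower in the common response, and 219 to 633 and 205 to 580 in the pooled test, with the lowest counts where an NC library was left out. Counts stayed within 1.5 times for limma-voom, 2 other scalings, 2 other filters and protein-coding genes alone, and upper quartile scaling put 62% of calls higher, against 53.4%. Replicate numbers did not pair the libraries, since same-numbered libraries had correlations of -0.102 to 0.078 in their deviations from group means, and a replicate block gave 311 higher and 269 lower, all 580 of them common genes of the pooled test. Per kilobase of 3′ UTR, sites of either siRNA were 1.659 times as frequent in common genes that fell as in all genes, against a ratio of 1.946 of the shares with a site. Of the 86 genes named by rule besides LINC00857, 55 lost the call with the random block, 36 with the replicate block, 21 with no filter, 6 with upper quartile scaling and 4 with limma-voom. DESeq2 ended no call among the 81 to which it gave an adjusted p. Depth limits genes of few counts such as TREX1, which had at most 96.9 normalized counts in any library.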

Other observations

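Zinc finger genes and the mitochondrial genome held further common changes, in groups chosen after the values were seen and given as counts only. Of 404 tested protein-coding or untyped genes with a ZNF symbol, most of them encoding DNA-binding zinc finger proteins, 38 were in the common response as higher and 6 as lower (9.41% and 1.49%, against 3.19% and 2.77% of all genes tested), and the median pooled log2 fold change was 0.13. ZNF629 had 2891, 3219 and 3227 with siRNA1 and 2938, 2937 and 3035 with siRNA2, against 1821, 1723 and 1773 in NC (0.78 ± 0.064, adjusted p = 0.000306). ZNF616 had 838, 871 and 881 with siRNA1 and 766, 867 and 735 with siRNA2, against 405, 444 and 424 in NC (0.96 ± 0.10, adjusted p = 0.000737). The knockdown values of both genes stood well above NC with each siRNA.

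Of the 37 tested genes of the mitochondrial genome none rose and 6 fell (16.2%, against 2.77% of all genes tested), the 12S ribosomal RNA gene MT-RNR1 and the transfer RNA genes MT-TK, MT-TR, MT-TH, MT-TS2 and MT-TL2. MT-TH had 2027, 2044 and 2087 with siRNA1 and 2284, 1962 and 1911 with siRNA2, against 3362, 3111 and 2692 in NC (-0.57 ± 0.082, adjusted p = 0.00298). The 16S ribosomal RNA gene MT-RNR2, in contrast, was below NC with siRNA1 and above it with siRNA2, at 306181, 323494 and 325457 with siRNA1 and 508767, 509645 and 519297 with siRNA2, against 451424, 457603 and 460948 in NC.

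Of 31 tested collagen genes 4 rose, COL17A1, COL5A3, COL11A2 and COL5A2, and 2 fell, COL12A1 and COL13A1 (12.9% and 6.45%, against 3.19% and 2.77% of all genes tested). COL11A2 was at 831 to 1172 in the knockdown libraries and 514 to 544 in NC (0.88 ± 0.11, adjusted p = 0.0017), and COL12A1 at 20126 to 26479 in the knockdown libraries and 33742 to 34465 in NC (-0.56 ± 0.094, adjusted p = 0.00634). Among 78 ribosomal protein genes 1 was called, RPL11, which rose (1.28%, against 3.19% of all genes tested). Among 274 solute carrier genes 11 rose and 10 fell (4.01% and 3.65%), shares near those over all genes.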
